A study of Mus musculus with 12 samples.

Results

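The scavenger receptors are cell-surface proteins through which macrophages bind and take up modified lipoproteins, microbes and dying cells. The genes described here are 8 of them, Marco, Msr1, Cd36, Olr1, Scarb1, Scarf1, Stab1 and Stab2, taken by their symbols as a named family. All 8 had a row in both deposited count tables, which share 54582 symbols. Their RNA was measured in primary mouse bone marrow-derived macrophages from tibial marrow, with an age of 6 to 8 weeks given in the labels. The 4 groups of 3 libraries were wild type (WT) macrophages, macrophages labelled Kif13b-deficient (KO), and each of these with apoptotic Jurkat cells (AC). Jurkat is a human T cell leukaemia line and served as the material to be engulfed, for 90 min at 1 macrophage to 5 apoptotic cells. The design text names the altered genotype as Kif13b-/- and the sample labels as a knock down, and the kind of allele and its tissue range are not given. Serum was labelled 10, 10 and 11% in the WT and 12, 13 and 14% in the KO libraries without apoptotic cells, so on the labels serum and genotype cannot be told apart there. From WT library 2 on, these percentages climb by 1 per library, as a spreadsheet column does when filled down, so they may not be the serum used. Nothing in the labels ties the 3 libraries of a group to different mice or cultures. The p-values therefore reflect library-to-library spread alone, which may be technical.

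Scavenger receptors are grouped into classes by structure. Marco and Msr1 (class A) are trimers with a collagen-like stalk that bind polyanionic ligands such as oxidised or acetylated LDL and bacterial surfaces. Cd36 and Scarb1 (class B) cross the membrane at both ends of the chain. CD36 takes up oxidised LDL and long-chain fatty acids, and SR-BI, the product of Scarb1, is the receptor for HDL and exchanges cholesterol with it. Olr1 encodes LOX-1, a lectin-like receptor for oxidised LDL (class E). Scarf1 (class F) encodes a receptor with epidermal growth factor-like repeats that binds apoptotic cells through C1q. Stab1 and Stab2 (class H) encode the stabilins, large endocytic receptors that can recognise phosphatidylserine. Stabilin-2 is best known from the sinusoidal endothelium of the liver. In atheroma, uptake through class A receptors and CD36 is a textbook route to the lipid-laden foam cell.

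All 8 genes are protein-coding in the GENCODE vM21 annotation of GRCm38. Marco lies on chromosome 1 (120474538 to 120505024), Msr1 on chromosome 8 (39581685 to 39642673) and Olr1 on chromosome 6 (129485244 to 129507165), all on the minus strand. Cd36 (17781690 to 17888801) and Scarb1 (125277087 to 125341094) are both on the minus strand of chromosome 5, far apart. Scarf1 is on chromosome 11 (75513540 to 75526582, plus strand), Stab1 on chromosome 14 (31139013 to 31168641, minus strand) and Stab2 on chromosome 10 (86841198 to 87008025, minus strand). No exon of Marco, Msr1, Olr1, Cd36, Scarb1 or Scarf1 overlapped another gene. Stab1 shares 112 exonic bases with Nt5dc2 and Stab2 shares 141 with Gm16268, each on the opposite strand, and the strand setting of the counting is not given in the sources used here.

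The RefSeq promoter table (GRCm38.p6) held 5 of the 8 genes, Marco, Cd36, Olr1, Stab1 and Stab2. The 250 bases before the start site are printed for Olr1 and Marco, which had the largest rises in co-culture, and for Cd36, the most abundant member, which fell. Both strands were searched for 8 motifs, AP-1 (TGANTCA), the cyclic AMP response element (TGACGTCA), the antioxidant response element (TGACNNNGC), PU.1 (GAGGAAGT), C/EBP (TTGCNNCAA), the core promoter box (TATAAA), the DR1 element and the NF-kB consensus. Capitals mark a match. The regions are chr6:129507166-129507415, chr1:120505025-120505274 and chr5:17835897-17836146, each on the minus strand and written 5′ to 3′.
Olr1: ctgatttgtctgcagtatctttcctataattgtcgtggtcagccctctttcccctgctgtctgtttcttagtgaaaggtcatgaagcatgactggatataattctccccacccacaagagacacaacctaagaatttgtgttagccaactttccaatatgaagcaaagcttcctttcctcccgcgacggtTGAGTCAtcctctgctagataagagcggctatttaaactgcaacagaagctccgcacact
Marco: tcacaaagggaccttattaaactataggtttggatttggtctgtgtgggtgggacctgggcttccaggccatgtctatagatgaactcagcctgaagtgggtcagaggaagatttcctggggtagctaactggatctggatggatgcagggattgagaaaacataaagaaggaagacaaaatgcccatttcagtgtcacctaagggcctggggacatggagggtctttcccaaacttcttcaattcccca
Cd36: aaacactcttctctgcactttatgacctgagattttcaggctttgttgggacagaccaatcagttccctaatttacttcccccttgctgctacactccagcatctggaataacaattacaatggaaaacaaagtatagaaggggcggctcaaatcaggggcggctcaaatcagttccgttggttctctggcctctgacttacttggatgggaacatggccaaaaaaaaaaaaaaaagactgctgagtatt
The single match among the 5 windows was an AP-1 motif in the Olr1 window, 60 to 54 bases before the start site. The same letters occur in 6.75% of the 32851 promoter windows of this length. The other motifs occur in 0.0335% (DR1) to 12.4% (the core promoter box) of them, and no match says only that these letters are not in a window. The Cd36 window belongs to a RefSeq start inside the GENCODE gene, and which start site these macrophages used was not measured.

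Each library held 18256622 to 18770757 counts without apoptotic cells and 17000976 to 17285594 with them. Each condition has its own table, so condition and table cannot be told apart. The number of symbols with a count was 18335 to 18540 in the first table and 31787 to 32801 in the second. Kif13b was at 34.2 ± 1.51 CPM (counts per 1000000 counts, libraries scaled jointly; SD, n = 3) in WT and 22.7 ± 3.41 in KO. With apoptotic cells it was at 80.1 ± 2.17 in WT and 89.0 ± 0.562 in the libraries labelled KO, against the label (log2 0.13, edgeR adjusted p = 0.0261), so every direction given below refers to the libraries so labelled. Libraries were compared by a chi-square of their counts divided by its degrees of freedom. KO library 3 lay closer to WT library 1 (9.11) than to KO library 1 (24.8) or KO library 2 (38.7). WT library 1 in turn lay closer to KO library 3 than to WT library 2 (10.6) or WT library 3 (19.55). The 8 macrophage markers, such as Csf1r and Adgre1, had counts in all 12 libraries. Their summed level was 30233 to 32684 CPM in WT, 30672 to 38098 in KO, 12462 to 13226 in WT + AC and 15031 to 15256 in KO + AC libraries.

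Per length of exon, Cd36 had the highest level of the 8 in each group. In WT macrophages it was at 1879 ± 267 CPM per kilobase (SD, n = 3), followed by Msr1 at 61.8 ± 8.83. Scarb1 (10.6 ± 1.06) and Stab1 (9.97 ± 1.38) came next with overlapping ranges, then Scarf1 (7.55 ± 0.602) and Marco (6.20 ± 1.14), and Olr1 (0.463 ± 0.154) and Stab2 (0.130 ± 0.0270) were lowest. Cd36 alone made up 94.6 to 95.5% of the summed level of the 8 genes per kilobase in WT libraries. With apoptotic cells Olr1 was second in the order, at 118 ± 3.16 CPM per kilobase in WT + AC and 132 ± 3.26 in KO + AC, above Msr1 at 98.6 ± 2.83 and 102 ± 1.23 with no overlap. Marco came next in both genotypes (15.2 ± 0.679 and 23.3 ± 2.40). The share of Cd36 in the sum was 78.9 to 79.3% in WT + AC and 76.2 to 76.9% in KO + AC libraries. The order of neighbours also differed between genotypes. Scarf1 stood below Scarb1 in WT + AC, WT and KO and above it in KO + AC, at 8.86 ± 0.594 against 6.64 ± 0.110.

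**Figure D1:**
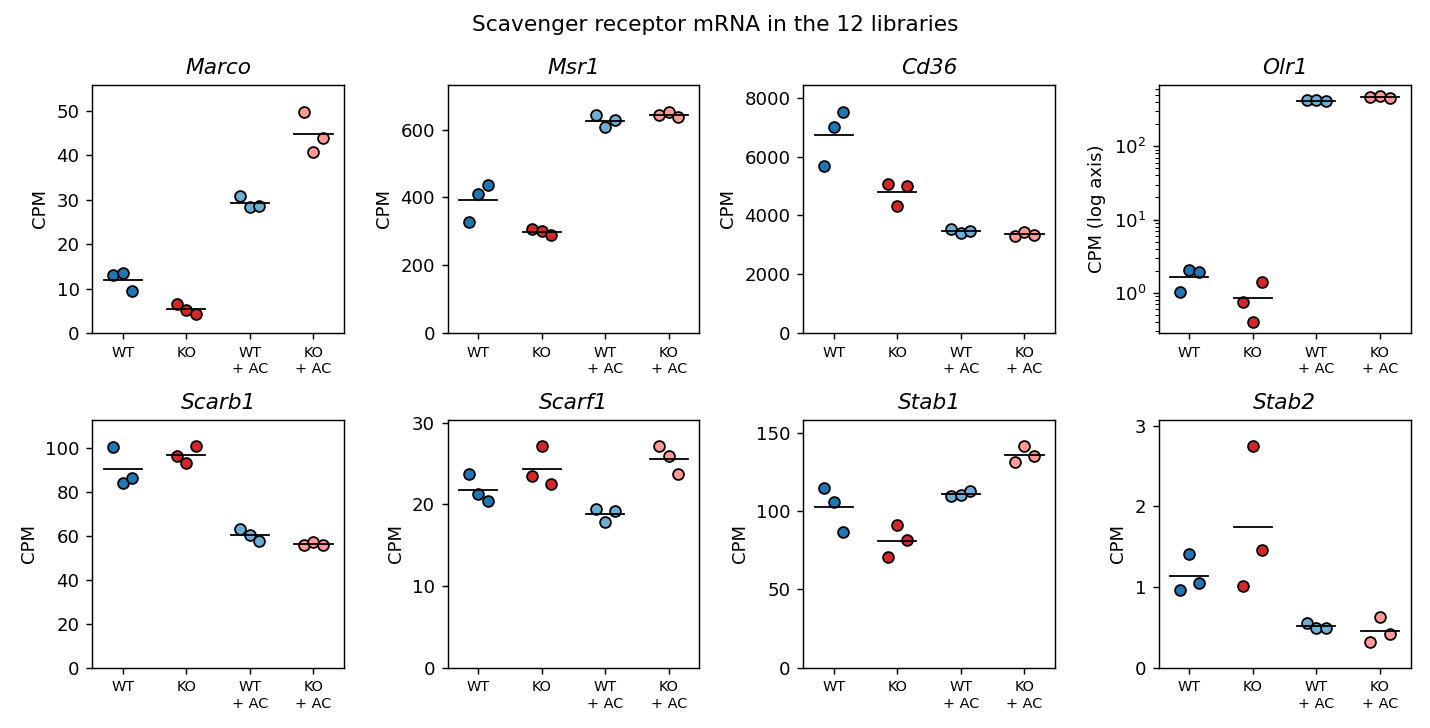
Level of each scavenger receptor mRNA in CPM (vertical axis, from 0 except for Olr1, which has a log axis) in WT and KO macrophages without and with apoptotic cells (AC). Points are the 3 libraries of a group and lines their means. Olr1 is between 0.402 and 2.02 CPM in the 6 libraries without and between 410.2 and 483 in the 6 with apoptotic cells.

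The co-culture comparison asks how the receptors differed between libraries of macrophages with and without apoptotic cells, in each genotype. Reads were aligned to the mouse genome, and whether RNA of the human Jurkat cells entered the counts of mouse symbols or their scaling was not tested. Olr1, Marco and Msr1 were higher and Cd36, Scarb1 and Stab2 lower with apoptotic cells in both genotypes, and Stab1 was higher in KO. In WT 3 of the 8 genes rose, 3 fell and 2 were not called (edgeR quasi-likelihood test, Benjamini-Hochberg adjusted p under 0.05). In KO 4 rose, 3 fell and 1 was not called. Of all 16810 genes tested, 85.0% were called in WT (48.3% higher, 36.7% lower) and 86.3% in KO (49.6% higher, 36.7% lower), and in 86.6 and 86.7% the libraries of both conditions did not overlap, so a call here does not set a gene apart, and the size of the change carries the description. The median log2 change of the 8 was -0.051 in WT and 0.41 in KO, beside 0.25 and 0.32 over all genes. Scaling by DESeq2's size factors moved those medians over all genes to 0.36 and 0.41. A correction for exonic length and GC content moved them to -0.17 in WT and -0.13 in KO, so corrected values have a lower baseline. For this reason changes are also given relative to the median of all genes. The WT and KO contrasts share no libraries.

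Olr1 changed most. It had 17, 33 and 31 counts in the WT and 11, 6 and 23 in the KO libraries, or 1.02, 2.02 and 1.92 CPM and 0.747, 0.402 and 1.40 CPM. Among co-cultured libraries its counts were 8517, 8511 and 8228 in WT (433, 423 and 410.2 CPM) and 9048, 9281 and 8853 in KO (475, 483 and 460.3 CPM). Every library with apoptotic cells was thus far above every library without. The log2 fold change was 7.99 (SE 0.16, adjusted p = 1.24e-24), or 255-fold, in WT and 9.08 (SE 0.18, adjusted p = 5.33e-25), or 541-fold, in KO. It ranked 556th in WT and 221st in KO from the top of the 16810 genes, and was 7.74 and 8.76 above the median of all genes. Its level without apoptotic cells rests on 6 to 33 counts, so the size of the fold is less certain than its direction, and it ran from 7.75 to 8.21 in WT and from 8.72 to 9.66 in KO over 18 alternatives each.

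The class A receptors rose in both genotypes. Marco was at 13.0, 13.4 and 9.42 CPM in WT and at 30.7, 28.3 and 28.6 in WT + AC. In KO it was at 6.45, 5.29 and 4.39 CPM and in KO + AC at 49.8, 40.7 and 43.8, so the KO groups were the lowest and the highest of the 4. The rise was 1.29 on the log2 scale (SE 0.12, adjusted p = 2.28e-10) in WT and 3.06 (SE 0.14, adjusted p = 1.59e-17) in KO. Msr1 was at 329, 411 and 436 CPM in WT and at 643, 607 and 627 in WT + AC. In KO it was at 306, 302 and 290.4 CPM, and at 642, 653 and 639 in KO + AC. The levels of Msr1 with apoptotic cells overlapped between genotypes, while those without did not. Its log2 change was 0.67 (SE 0.09) in WT and 1.11 (SE 0.09) in KO, or 0.43 and 0.79 above the median of all genes. With the correction for exonic length and GC content it was 0.27 and 0.35, beside medians of all genes of -0.17 and -0.13.

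The class B receptors fell in both genotypes. Cd36 was at 5680.4, 7014 and 7538 CPM in WT and at 3540.1, 3401 and 3485 in WT + AC. In KO it was at 5065, 4314 and 4995 CPM and in KO + AC at 3318, 3455 and 3352. All 6 libraries with apoptotic cells were below all 6 without, and their spread was narrower, with a coefficient of variation of 2.02 and 2.11% against 14.2 and 8.66%. The narrower spread was not particular to Cd36, as every other member also had a lower coefficient of variation with apoptotic cells in both genotypes. The fall was -0.96 (SE 0.10, adjusted p = 5.21e-10) in WT and -0.51 (SE 0.10, adjusted p = 2.15e-05) in KO. Scarb1 was at 101, 84.2 and 86.4 CPM in WT, 63.4, 60.6 and 57.7 in WT + AC, 96.5, 93.2 and 101 in KO and 56.1, 57.5 and 55.7 in KO + AC. Scarb1 was thus lower with apoptotic cells in every library, by -0.58 (SE 0.09) in WT and -0.78 (SE 0.09) in KO. With the length and GC correction the values were -1.19 and -1.35, beside medians of all genes of -0.17 and -0.13.

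Among the remaining genes, Scarf1 was at 23.7, 21.2 and 20.4 CPM in WT and 19.4, 17.8 and 19.1 in WT + AC. In KO it was at 23.4, 27.1 and 22.5 CPM and in KO + AC at 27.1, 25.9 and 23.7. It was called in neither genotype (log2 -0.21, adjusted p = 0.0544, with no overlap in WT, and 0.072, adjusted p = 0.503). The WT value passed the threshold without WT library 3 (adjusted p = 0.0287), KO library 2 (0.0450) or KO library 3 (0.0227), and the KO value was 0.48 (adjusted p = 2e-06) with the length and GC correction. Relative to the median of all genes Scarf1 was lower in both, by -0.46 and -0.25. Stab1 was at 115, 106 and 86.9 CPM in WT, within whose range all WT + AC libraries fell (109.6, 111 and 113). In KO it was at 70.4, 91.2 and 81.7 CPM and in KO + AC at 131, 141 and 135, a rise of 0.75 (SE 0.10, adjusted p = 8.92e-08). The length and GC correction ended that call (0.0060, adjusted p = 0.935) and turned the WT change from 0.11 (adjusted p = 0.283) to -0.73 (adjusted p = 5.7e-11). Under that correction the medians of all genes were -0.13 in KO and -0.17 in WT. Without it the WT change relative to the median of all genes was -0.14. Without WT library 3 the WT value was -0.0062 (adjusted p = 0.955), and with DESeq2's size factors 0.22 (0.0398).

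Stab2 stood near the detection limit, with 15 to 41 counts in libraries without and 6 to 12 with apoptotic cells. It was at 0.959, 1.41 and 1.05 CPM in WT, 1.02, 2.74 and 1.46 in KO, 0.559, 0.497 and 0.499 in WT + AC and 0.315, 0.625 and 0.416 in KO + AC. The fall was -1.13 (SE 0.37, adjusted p = 0.00638) in WT and -1.93 (SE 0.36, adjusted p = 1.56e-05) in KO, and the WT call ended with DESeq2 (adjusted p = 0.0515). Markers of endothelium, the cell type in which stabilin-2 is best known, had a higher sum with apoptotic cells, most of it Vwf. The 9 of 10 endothelial markers found in both tables summed to 22.7 to 26.3 CPM in WT, 21.8 to 29.3 in KO, 51.3 to 57.5 in WT + AC and 63.6 to 64.8 in KO + AC. Vwf alone was at 17.8 ± 1.62 CPM in WT, 17.3 ± 2.64 in KO, 47.3 ± 3.43 in WT + AC and 56.2 ± 0.461 in KO + AC. Of the 4 endothelial markers tested, Vwf and Cdh5 were called higher with apoptotic cells in both genotypes, Kdr was lower in KO (-0.47, adjusted p = 0.0141) and not called in WT, and Pecam1 was called in neither. Cldn5 had no count in any of the 6 libraries without apoptotic cells, and 7 of the 9 in those groups, and 5 or 6 of the 9 with apoptotic cells, were below 1 CPM.

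Markers of T cells summed to 17.5 to 26.6 CPM in WT, 14.7 to 19.5 in KO, 35.7 to 40.5 in WT + AC and 29.9 to 36.2 in KO + AC libraries. That sum mixed opposite changes. Of the 6 T cell markers tested, 3 were called higher, 1 lower and 2 not called in each genotype, beside 85.0 and 86.3% of all genes called. Lck was at 0.751 ± 0.183 CPM in WT, 26.1 ± 2.18 in WT + AC, 1.01 ± 0.362 in KO and 22.0 ± 2.41 in KO + AC. Cd28, most of the sum without apoptotic cells, was at 19.4 ± 4.76, 4.91 ± 0.281, 13.9 ± 2.83 and 4.26 ± 0.702 in the same order. Cd3d had no count in the WT libraries, and 4 of the 8 T cell markers were below 1 CPM on average in each group with apoptotic cells. The macrophage sum given above was lower in every library with apoptotic cells, and most of it was Lyz2 (25121 ± 1372 CPM in WT and 8956 ± 304 in WT + AC). The macrophage markers went both ways, with 3 of 8 higher and 5 lower in WT and 4 higher and 4 lower in KO. Over all genes 85.0 and 86.3% were called. Csf1r, for one, was at 579.8 ± 48.4 CPM in WT and 784 ± 18.4 in WT + AC. The part of these shifts in the receptor changes was not tested, and in bulk RNA fewer cells of a type and less RNA per cell cannot be told apart.

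**Figure D2:**
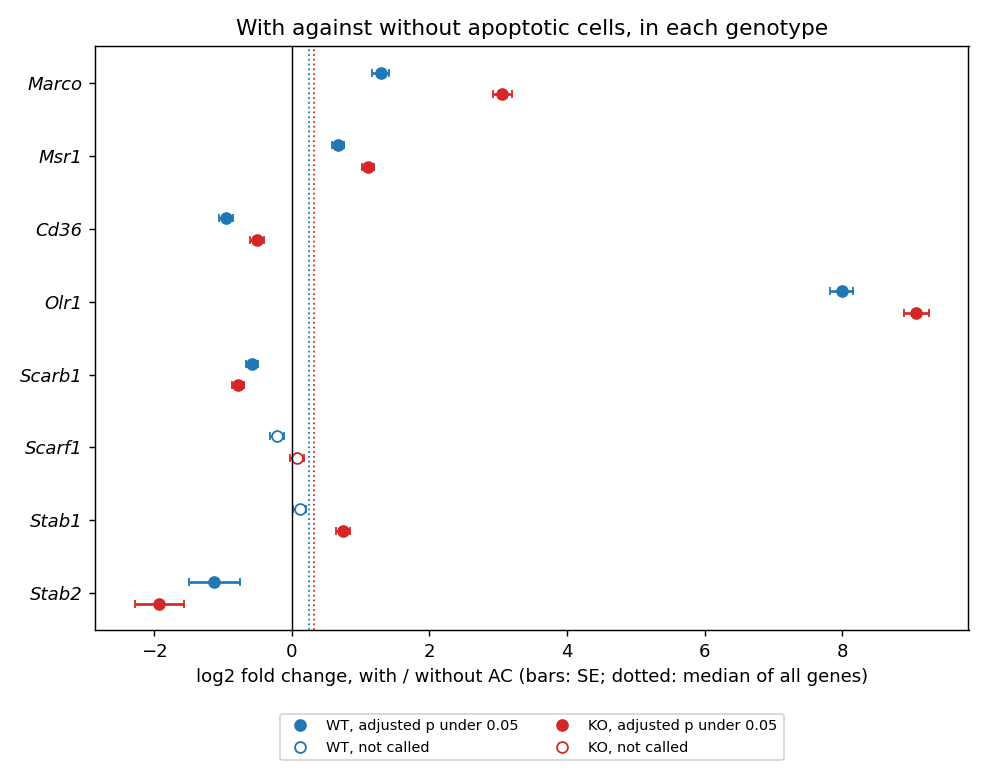
Change with apoptotic cells (horizontal axis, log2 fold change with SE) of the 8 genes in WT and KO macrophages. Filled points had an adjusted p under 0.05 and dotted lines are the medians of all genes, 0.25 in WT and 0.32 in KO. Olr1 stands at 7.99 and 9.08, and Cd36, Scarb1 and Stab2 are below 0 in both.

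The genotype comparison without apoptotic cells asks whether resting macrophages labelled KO differed in these receptors. Marco, Cd36 and Msr1 were lower in KO, and the other 5 genes were not called, where 16.2% of 12640 genes tested were called, 7.94% as higher and 8.24% as lower in KO. The ranges of WT and KO did not overlap for 33.6% of genes. The median log2 fold change of the 8 was -0.36, beside 0.024 over all genes. Marco fell by 1.15 on the log2 scale (SE 0.18, adjusted p = 0.000412), from 11.9 ± 2.19 to 5.38 ± 1.03 CPM, and the ranges did not overlap. That call was kept under all 13 alternatives to the fit and with a 2-fold minimum (log2 -1.45 to -1.06, adjusted p 1.73e-08 to 0.0114). Cd36 was at 4791 ± 415 CPM in KO against 6744 ± 958 in WT (log2 -0.49, SE 0.15, adjusted p = 0.0265), with no overlap of ranges. Msr1 was at 299 ± 8.08 CPM against 392 ± 56.0 (log2 -0.39, SE 0.13, adjusted p = 0.0442), again with no overlap.

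The Cd36 and Msr1 calls depended on single libraries and on the joint correction for length and GC content. They ended without KO library 1 (adjusted p = 0.0683 for Cd36 and 0.108 for Msr1), KO 2 (0.109 and 0.0880), WT 2 (0.115 and 0.186) or WT 3 (0.196 and 0.259), with log2 values between -0.53 and -0.30. With the correction for exonic length and GC content Cd36 was at -0.052 (adjusted p = 0.768) and Msr1 at 0.044 (adjusted p = 0.825), and neither was called. Marco was at -1.44 with the same correction. Over all genes the correction left 746 called, against 2045.

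For the other 5 genes the ranges of WT and KO overlapped. Olr1 was at 0.850 ± 0.508 CPM in KO against 1.65 ± 0.552 in WT (log2 -0.93, SE 0.36, adjusted p = 0.0795), and it was called in 5 of 12 alternatives, among them without KO library 3 (-1.55, adjusted p = 0.0104) and without WT library 1 (-1.18, 0.0407). Stab1 was at 81.1 ± 10.4 CPM against 103 ± 14.2 (log2 -0.34, SE 0.13, adjusted p = 0.0812) and was called in 4 of 13, including the length and GC correction (-0.44, adjusted p = 0.00685) and without KO library 3 (-0.38, 0.0425). Scarf1 was at 24.3 ± 2.44 CPM against 21.8 ± 1.74 (log2 0.16, 95% interval -0.10 to 0.43) and turned to -0.13 with the length and GC correction. Stab2 was at 1.74 ± 0.896 CPM against 1.14 ± 0.236 (log2 0.61, 95% interval -0.040 to 1.26). Scarb1 was at 96.8 ± 3.86 CPM against 90.4 ± 8.98 (log2 0.10, 95% interval -0.14 to 0.34), uncalled in all 13 alternatives.

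With apoptotic cells the called differences between genotypes were in the other direction. Marco, Scarf1, Stab1 and Olr1 were higher in KO + AC and the other 4 were not called, where 11.3% of 16467 genes tested were called, 6.58% as higher and 4.75% as lower, and 27.8% had ranges that did not overlap. The median of the 8 was 0.080, beside -0.020 over all genes. Marco was at 44.8 ± 4.62 CPM against 29.2 ± 1.31 (log2 0.59, SE 0.059, adjusted p = 7.92e-10). Scarf1 was at 25.6 ± 1.71 against 18.8 ± 0.860 (log2 0.42, SE 0.066, adjusted p = 5.3e-06). In both genes the KO + AC and WT + AC libraries did not overlap, and the calls were kept under all 12 alternatives to the fit, though neither difference reached a 2-fold minimum.

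Stab1 was at 136 ± 4.99 CPM in KO + AC against 111 ± 1.48 (log2 0.27, SE 0.038, adjusted p = 3.83e-07), with no overlap. Olr1 was at 473 ± 11.6 CPM against 422 ± 11.3 (log2 0.14, SE 0.033, adjusted p = 0.00257), also with no overlap and a difference of about 1.1-fold. Both calls ended in the joint fit of the 12 libraries (Stab1 adjusted p = 0.200, Olr1 0.702), which uses 1 estimate of spread for both conditions. Estimated table by table by edgeR, that spread (the common biological coefficient of variation) was 0.117 in the table without and 0.0294 in the table with apoptotic cells.

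Cd36 (log2 -0.066, 95% interval -0.13 to -0.0014, adjusted p = 0.218) and Msr1 (0.020, 95% interval -0.045 to 0.084, adjusted p = 0.791) were not called, and their ranges overlapped. Scarb1 was at 56.4 ± 0.934 CPM in KO + AC against 60.5 ± 2.86 (log2 -0.13, SE 0.045, adjusted p = 0.0608), with no overlap, and was called without WT + AC library 3 (-0.16, adjusted p = 0.0361). Stab2, at 0.452 ± 0.158 against 0.518 ± 0.0352 CPM, had too few counts to show a difference of this size (log2 -0.22, 95% interval -0.98 to 0.54). The length and GC correction moved each member by less than its SE here, and no member's direction differed under DESeq2's size factors in either genotype comparison.

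**Figure D3:**
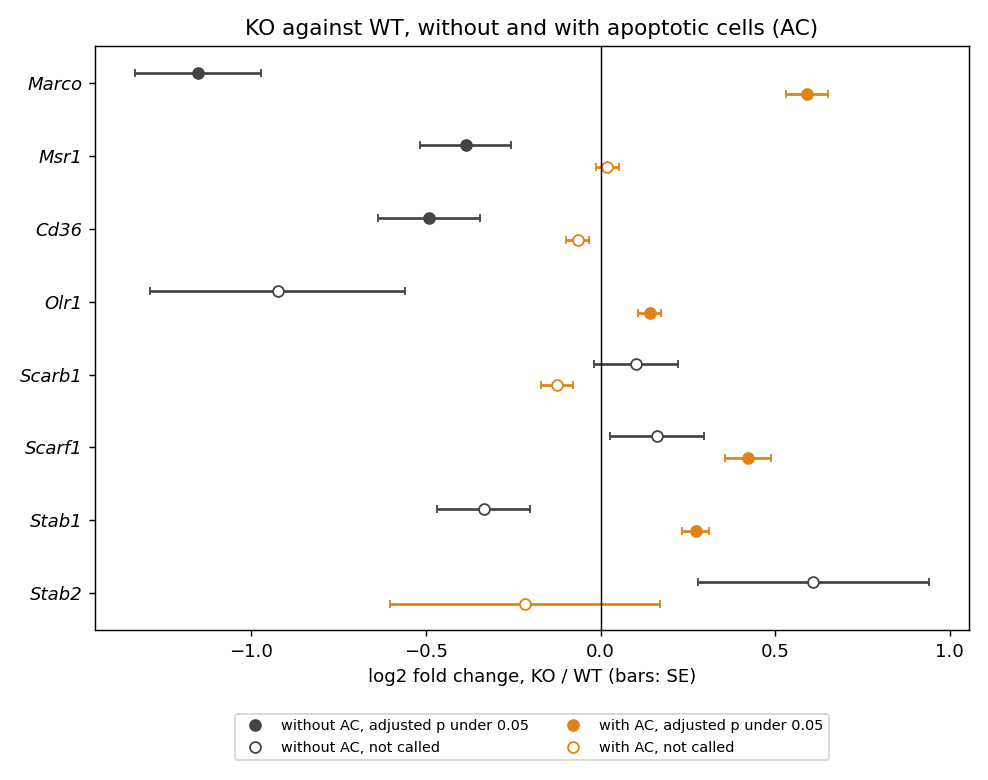
Difference of KO from WT (horizontal axis, log2 fold change with SE) for the 8 genes without and with apoptotic cells. Filled points had an adjusted p under 0.05. Marco is at -1.15 without and at 0.59 with apoptotic cells, and Stab1 at -0.34 and 0.27.

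The interaction, (KO + AC against WT + AC) minus (KO against WT), tests whether the genotype difference changed with apoptotic cells. It was positive and called for Marco, Stab1, Olr1, Cd36 and Msr1, and the other 3 genes were not called, where 12.7% of 16810 genes were called, 7.55% as positive and 5.13% as negative. Marco had the largest value, 1.77 (SE 0.19, adjusted p = 5.81e-07), a lower level in KO without and a higher one with apoptotic cells. Stab1 was at 0.63 (SE 0.14, adjusted p = 0.00388). Both were kept under all 17 alternatives to the fit, at 1.64 to 2.02 for Marco and 0.50 to 0.74 for Stab1, so Stab1 stayed under a 2-fold minimum. Kif13b, the gene named in the label, also had a positive interaction that was called (0.74, edgeR adjusted p = 0.000815). It was at -0.59 without and 0.13 with apoptotic cells.

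Olr1 was at 1.09 (SE 0.32, adjusted p = 0.0254), Cd36 at 0.45 (SE 0.13, adjusted p = 0.0269) and Msr1 at 0.43 (SE 0.13, adjusted p = 0.0252). These 3 were less stable. The interaction comes from the joint fit, with 1 estimate of spread for both conditions, though the spread was wider without apoptotic cells. Its SEs for Olr1, Cd36 and Msr1 (0.322, 0.135 and 0.128) were below those of the genotype difference without apoptotic cells alone (0.364, 0.145 and 0.130). The adjusted p of these 3 genes may therefore be too small. The Olr1 call ended without WT library 2 (adjusted p = 0.115), WT 3 (0.0992), KO 1 (0.0884) or KO 2 (0.159). Those of Cd36 and Msr1 ended without WT 2 (0.0793 and 0.0820), WT 3 (0.109 and 0.0999), KO 2 (0.137 and 0.0664) and without any one library with apoptotic cells, where they ran from 0.0504 to 0.0816. With the length and GC correction Cd36 was at 0.12 (adjusted p = 0.489) and Msr1 at 0.079 (adjusted p = 0.739), while Scarf1 was at 0.56 (adjusted p = 0.00116) against 0.29 (adjusted p = 0.199) before it. Scarb1 (-0.20, adjusted p = 0.307) was called without WT library 1 (-0.33, adjusted p = 0.0446), and Stab2 (-0.80, adjusted p = 0.360) in no alternative.

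The sum of stromal markers moved with genotype in the opposite sense to Marco. The 8 fibroblast and stromal markers, among them Col1a1 and Acta2, summed to 621 to 766 CPM in WT, 931 to 1215 in KO, 380.1 to 419 in WT + AC and 262 to 281 in KO + AC libraries. None was at 0 in all libraries of a group. Of the 8, 6 were called higher in KO, where 7.94% of all genes were. With apoptotic cells 5 of the 7 tested were called lower in KO + AC, where 4.75% of all genes were. Acta2 was not lower there, at 16.0 ± 1.22 CPM in KO + AC and 15.3 ± 0.568 in WT + AC. Macrophage markers had 2 of 8 lower in KO, Itgam (-0.46) and Ptprc (-0.52), where 8.24% of all genes were. In KO + AC 5 of 8 were higher, among them Lyz2 (0.24) and Adgre1 (0.21), where 6.58% of all genes were. The part of these differences in the receptor results was not tested.

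**Figure D4:**
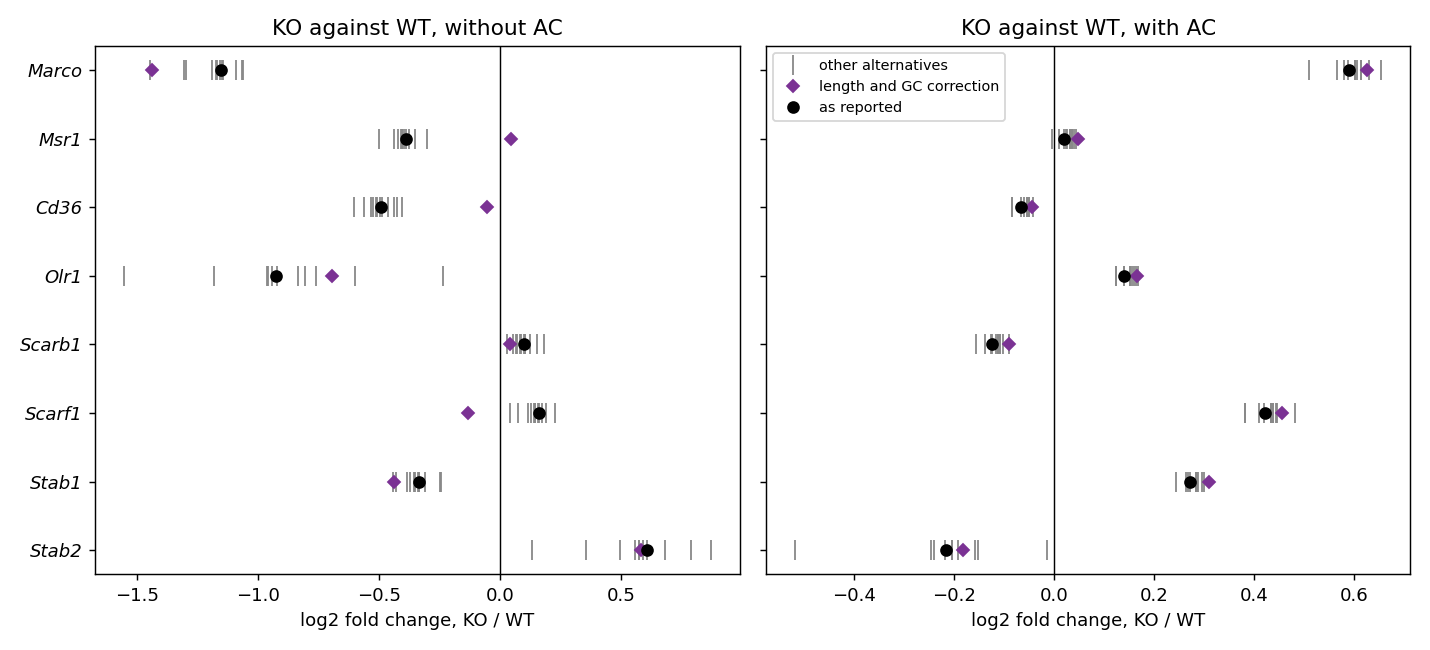
Difference of KO from WT (horizontal axis, log2 fold change; the scales of the 2 panels differ) for each gene as reported (black), with the correction for exonic length and GC content (purple) and under the other alternatives (grey). Without apoptotic cells Cd36 goes from -0.49 to -0.052 and Msr1 from -0.39 to 0.044 with the correction, and Marco stays below -1.

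Other scavenger and endocytic receptors were read beside the 8 as a list of 16 genes. The shares of all genes called, given above for each comparison, are the background of the counts in this and the next list, and nothing particular to either list is read from its counts. In resting macrophages 2 of the 12 tested were lower in KO and the other 10 were not called, with a median of -0.0043. The 2 were the mannose receptor Mrc1 (-0.61, adjusted p = 0.00625) and the haemoglobin-haptoglobin receptor Cd163 (-1.53, adjusted p = 0.0160). Cd163 stood near the detection limit, with 14 to 18 counts in WT, 4 to 7 in KO, 6 to 7 in WT + AC and 5 to 13 in KO + AC libraries. With apoptotic cells 3 of 14 were higher in KO + AC, the lipopolysaccharide co-receptor Cd14 (0.32), the transmembrane chemokine Cxcl16 (0.27) and the endosomal glycoprotein Cd68 (0.11), and 2 were lower, one of them Scarf2 (-0.64). The interaction was called for 5 of 16, of which Cd14 (0.66), Mrc1 (0.59) and Cd163 (1.91, from those few counts) were the 3 positive ones. In co-culture 8 of 16 rose and 5 fell in WT, and 9 and 5 in KO. Cd14 rose by 2.17 in WT and 2.83 in KO, and Lrp1, the large endocytic receptor of the LDL receptor family, by 1.74 and 2.03, while Cd68 (-1.12 and -1.21) and the lysosomal class B protein Scarb2 (-1.06 and -0.99) fell.

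Ligands, co-receptors and adaptors of the scavenger receptors formed a list of 21 genes. Without apoptotic cells 3 of 19 tested were called between genotypes, close to the 16.2% of all genes. The kinase Src (0.78, adjusted p = 0.00235) and the matrix protein and stabilin-1 ligand Sparc (0.58, adjusted p = 0.00596) were higher in KO, and Tlr4 was lower (-0.43, adjusted p = 0.0331). With apoptotic cells 8 of 20 were higher and 3 lower in KO + AC. Thrombospondin-1 (Thbs1), a ligand of CD36, was at 0.40, Apoe at 0.29 and C1qa, a chain of the SCARF1 bridge C1q, at 0.30, while Sparc was lower (-0.63). In co-culture 6 rose and 11 fell of 19 in WT, and 7 and 11 in KO. Tlr2, which works with CD36 in the response to bacterial lipopeptides, rose by 3.84 and 4.42 and the kinase Syk by 2.13 and 2.28.

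Patterns like those of single receptors were sought by the Pearson correlation of log2 CPM over the 12 libraries among 8996 genes whose mean level was 5 CPM or more. The libraries fall into 2 clusters by condition, so values over all 12 mostly rank genes by that split, and the values within each 6 are given for the nearest gene of each receptor. Marco was most like the formyl peptide receptor Fpr1 (r = 0.990 over 12, 0.928 within the 6 libraries without and 0.979 within the 6 with apoptotic cells), then Cd38 (0.981) and Zswim6 (0.979). Olr1 was most like Dennd4a (0.999, and 0.955 and 0.855 within the 6 without and with apoptotic cells), the cytokine gene Il1a (0.998) and Ptgs2 (0.998), which encodes cyclooxygenase-2. Stab1 was most like the cation channel Trpv4 (0.957, and 0.964 and 0.798), Sorbs3 (0.950) and Rnf150 (0.946). Msr1 was nearest to Luc7l (0.994), Snapc1 and Smndc1, Cd36 to Hsd17b12 (0.993), Fpgt and Nxt2, Scarb1 to S1pr2 (0.991, and 0.939 and 0.746), Tmem104 and Gas1, and Scarf1 to Laptm5 (0.886, and 0.731 and 0.976), Armc5 and Agtrap. Within the 6 libraries with apoptotic cells the likeness of Msr1 and Luc7l was 0.307 and that of Cd36 and Hsd17b12 was -0.156, against 0.968 and 0.992 within the 6 without.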

How the data were processed

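RNA of 12 libraries was measured by paired-end sequencing. The deposited values are raw read counts per gene symbol without normalisation, per the file headers, in 1 table for each condition. Reads were handled with fastp and HISAT2 2.0.5 against mm10, and DESeq2 1.20.0 is also named, per the submitters' processing notes. For the counting tool, the annotation and the strand setting, the sources used here give nothing. No column of samples was left unused.

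Counts were tested in R 4.3.3 with edgeR 4.0.16 (filterByExpr, TMM, robust two-sided quasi-likelihood test, Benjamini-Hochberg over all genes tested, threshold 0.05). All 8 members passed the filter on low counts in each of the 5 comparisons. Genotypes were compared within a table, while a joint model of the 54582 symbols common to both tables, with 12 libraries, gave the co-culture effects and the interaction. CPM are on the joint scale throughout, as mean ± SD, and their precision is limited by 3 libraries a group. Fold changes carry the SE derived from the test statistic, and 95% intervals rest on it. Exonic length and GC content came from GENCODE vM21.

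Alternatives were a replicate block, DESeq2 1.42.0, edgeR scaled by DESeq2's size factors, omitting the filter, a minimum 2-fold change, another choice of fitted libraries, each library left out, KO libraries 1 and 2 left out, and a spline correction per library for length and GC content. The block across conditions was added after seeing the data. Simulated counts had 200 genes changed, 100 by 1 and 100 by 2 on the log2 scale. Of the 100 changed by 1, the test recovered 97% for the genotypes without apoptotic cells (12513 genes) and 94% for those with them (16196). It recovered 96% for co-culture in WT (15661) and 100% for the interaction (15686). For the interaction the change was put into both KO + AC and WT, so the simulated interaction was larger than 2-fold. Recovery of a 2-fold interaction was not tested. Of all calls in each simulation, with both sizes of change together, 3.90, 3.96, 3.45 and 6.98% were false. The share for the interaction was thus above the 5% aimed at. Within a simulation every gene and library had the same dispersion, and only genes above a minimum mean count were changed. The rates therefore do not cover genes with few counts, tables that differ in spread or a library that stands apart. Named genes are the 8 members, up to 4 genes with the smallest p of each list, and the 3 genes most like each member. The members and lists were chosen with earlier results of these data known.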

Additional observations from a re-analysis of the deposited data

Results flagged for a closer look

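The difference between KO and WT macrophages changed with apoptotic cells for 5 of the 8 receptors by the interaction test of edgeR, which called 12.7% of 16810 genes. The calls of Cd36 and Msr1 were each lost in 11 of 17 alternatives and that of Olr1 in 4. Marco had an interaction of 1.77 on the log2 scale, and the KO libraries without apoptotic cells were below, and those with them above, all WT libraries of the same condition. Olr1 was at 1.09, from counts of 6 to 33 in the libraries without apoptotic cells. Stab1 was at 0.63, Cd36 at 0.45 and Msr1 at 0.43, and for Cd36 and Msr1 the genotype difference was called without apoptotic cells, where it was -0.052 and 0.044 with the length and GC correction. Each condition has its own count table, so an interaction with the condition and one with the table cannot be told apart. Kif13b itself changed sign in the same way as Marco, from -0.59 without to 0.13 with apoptotic cells (interaction 0.74, edgeR adjusted p = 0.000815). Groups of 3 libraries are too small to test for a single library that stands apart.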

How the results depend on the processing

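Of 620 member values under an alternative, 556 kept direction and side of the threshold, 42 lost a call, 17 gained one and 5 changed sign. The 556 include uncalled genes that stayed uncalled. They also include co-culture fits without a library outside the contrast, which acts only through scaling and the estimate of spread. The share kept is therefore not a measure of how firm the calls are. The sign changes were Msr1 (0.044) and Scarf1 (-0.13) without apoptotic cells and Stab1 in WT co-culture (-0.73) with the length and GC correction, Stab1 in WT co-culture without WT library 3 (-0.0062, and up to 0.21 with another library left out), and Msr1 with apoptotic cells without WT + AC library 2 (-0.0037, and up to 0.041 with another left out). The cause was not tested. Receptors called by genotype without apoptotic cells numbered 3, against 5 with no filter or in the joint fit and 1 without KO libraries 1 and 2 or at 2-fold or more, and leaving out 1 library gave 1 to 5. With apoptotic cells they numbered 4, against 2 in the joint fit and 0 at 2-fold or more, and 4 to 5 with 1 library left out. At 2-fold or more the co-culture counts of 6 and 7 became 3 and 4, and leaving out 1 library gave 6 to 7 in WT and 7 to 7 in KO. For the interaction the count of 5 became 3 with the replicate block within condition, 2 at 2-fold or more and 2 to 6 with 1 library left out. Replicate numbers did not pair the libraries (correlation of same-numbered deviations -0.281, -0.008 and 0.245 between WT and KO, -0.065 to 0.056 with apoptotic cells). With the block as a term Msr1 lost its call between genotypes (adjusted p = 0.0545) and, with Cd36, in the interaction, and Olr1 gained one without apoptotic cells (adjusted p = 0.0316).

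Over all genes the calls without apoptotic cells were 2045, against 746 with the length and GC correction, 3999 in the joint fit, 95 without KO libraries 1 and 2, 160 at 2-fold or more and 312 to 4166 with 1 library left out (312 without KO 1, 370 without WT 3, 698 without KO 2, 1001 without WT 2, 4166 without KO 3). With apoptotic cells 1866 were called, 58.0% of them higher, against 1150 by DESeq2 (75.1% higher), 2418 with the correction (73.6%), 157 in the joint fit (43.3%) and 28 at 2-fold or more, and 1192 to 2142 with 1 library left out. In co-culture 56.9 and 57.5% of calls were higher, against 44.5 and 46.4% with the correction and 67.5 and 66.5% by DESeq2. At 2-fold or more 9221 of 14286 calls were left in WT and 9950 of 14503 in KO. The interaction had 2132 calls, 330 at 2-fold or more, and 1129 to 4330 with 1 library left out.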

Other observations

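Genes that handle lipid after uptake formed a list of 15. In co-culture 5 rose and 9 fell in WT, and 6 rose and 9 fell in KO, with medians of -0.77 and -0.57 beside 0.25 and 0.32 over all genes, of which 85.0 and 86.3% were called. The lipid droplet coat gene Plin2 fell by 1.65 and 1.89 on the log2 scale, the fatty acid carrier Fabp5 by 1.98 and 2.32 and the cholesterol exporter Abcg1 by 1.41 and 1.76. Abca1, another cholesterol exporter, rose by 1.76 in KO (117 ± 16.9 to 398 ± 13.2 CPM) and was at 137 ± 14.8 in WT and 356 ± 10.7 in WT + AC, and its interaction was not called (0.38, edgeR adjusted p = 0.0644). Between genotypes 1 of 14 was called without apoptotic cells, where 16.2% of all genes were, Fabp5, higher in KO (0.53, adjusted p = 0.0234 by edgeR). With apoptotic cells, where 11.3% of all genes were called, 7 of 15 were higher in KO + AC, such as Acsl1 (0.39), Fabp4 (0.21) and Fabp5 (0.15), and 1 was lower, Lpl (-0.14).

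Transcription factors linked to scavenger receptor expression formed a list of 17. In co-culture 7 rose and 6 fell in WT, and 6 rose and 6 fell in KO, beside 85.0 and 86.3% called over all genes. Nothing particular to the list is read from these counts. Pparg, known for activating Cd36, fell by 1.90 in WT and 1.65 in KO, and Maf by 2.12 and 1.94, while Srebf2, the sterol sensor, rose by 1.28 and 1.38. Between genotypes the liver X receptor gene Nr1h3 was higher in KO without apoptotic cells (0.41, adjusted p = 0.0385), and with them Rela (0.33) and Srebf2 (0.12) were higher and Nfe2l2 (-0.10) lower.

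Neutrophil and progenitor markers, 6 genes, summed to 19.3 to 20.6 CPM in WT, 18.1 to 24.8 in KO, 10.5 to 11.3 in WT + AC and 12.2 to 14.1 in KO + AC libraries. Nearly all of it was S100a8, at 19.4 ± 0.747, 20.8 ± 3.38, 10.5 ± 0.542 and 12.7 ± 0.976 CPM in the same order. The other 5 were below 1 CPM on average in each group.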
